A study of Homo sapiens with 6 samples.

Results

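The genes described here encode the core proteins of small nucleolar ribonucleoproteins (snoRNPs), RNA polymerase I with its factors, and proteins that process and assemble ribosomal RNA precursors. They were taken from a list of 43 gene symbols, each of which matched 1 row of the 63677 genes in the count table. No measured value entered the rule, but the list was chosen with earlier results of these data known. RNA was sequenced from cells labelled LoVo, a human colorectal cancer cell line. Cells had been transfected with Lipofectamine 2000 for 48 h at 25 nM, either with a combination of both siRNAs against the long noncoding RNA *SNHG15* or with a negative control siRNA, called scramble in the labels. There were 3 libraries for each condition. The methods call them biological replicates, while the labels give only numbers. No library received 1 of the siRNAs alone, so the siRNAs cannot be told apart here, and a bulk measurement cannot tell fewer cells of a kind from less RNA per cell.

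Ribosomes are built in the nucleolus, where RNA polymerase I transcribes the long precursor of the 18S, 5.8S and 28S ribosomal RNAs. Box C/D snoRNPs methylate the precursor at the ribose, box H/ACA snoRNPs convert uridines to pseudouridines, and large sets of helicases, WD-repeat proteins, nucleases and GTPases fold and cut it into the small and large subunits. The transcription factor MYC is known to drive many of these genes in proliferating tumor cells, and the E-box CACGTG is the sequence it binds best.

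Since MYC is a known regulator of this pathway, E-boxes were sought in the RefSeq promoter windows of the genes (GRCh38.p14, 250 bases before and 50 bases from the transcription start, both strands at once because CACGTG is its own reverse complement). A window was at hand for 36 of the 43 genes, and more than 1 for 11 of them. Counted by gene, 18 of the 36 (50%) held the motif in any window, against 8.77% of the 27305 genes with a window and 13% of the 9114 of these tested for expression. Counted by window, 7.26% of all 35116 held it. The following stretches, 5′ to 3′ on the strand of the gene with the E-box in capitals, are from the genes described in full that hold one upstream of the start.
*LYAR*: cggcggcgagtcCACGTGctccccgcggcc
*UTP20*: cttttttccgtcCACGTGaccc
*EBNA1BP2*: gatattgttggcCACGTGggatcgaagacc
*DDX21*: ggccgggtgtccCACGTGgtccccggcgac
The *LYAR* stretch lies at chr4:4290068-4290097 on the minus strand with its motif beginning at position -64 from the start, and the *UTP20* stretch at chr12:101280083-101280104 on the plus strand with the motif at -10. That of *EBNA1BP2* is at chr1:43172790-43172819 on the minus strand (motif at -237), and that of *DDX21* at chr10:68956604-68956633 on the plus strand (motif at -31). *EBNA1BP2* had 2 windows, which also gave a match at +43. Whether that position counts from the same start was not resolved, so it may be the same site as at -237. Downstream of the start lay the motifs of *FBL* at +7, *GAR1* at +32, *WDR43* at +4 and *NOP2* at +36. Those of *BYSL* and *PUS7* lay at +29, and further genes with a downstream motif are not listed. Among genes not given in full, motifs began upstream in *NOP10* (-170 and -11), *UTP18* (-89), *IMP4* (-203) and *RRP9* (-5). Of the genes given in full, *NOP56*, *DKC1*, *NCL*, *POLR1A* and *TAF1D* had a window without the motif, and *NOLC1* and *DDX18* had no window. The motif is a match of letters and not a measured binding site.

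Library totals lay between 3446922 counts (scramble replicate 3) and 10256710 counts (scramble replicate 2). *SNHG15* itself fell in the siRNA libraries, from 276 ± 14.3 to 82.5 ± 4.997 CPM (counts scaled by library size, mean ± SD, n = 3), a log2 fold change of -1.74 (SE 0.12, adjusted p = 2.6e-05, edgeR). Within conditions, the siRNA libraries differed most where replicate 1 was involved, where the chi-square statistic divided by its degrees of freedom was 14.5 and 20.4 against replicates 2 and 3 but 4.34 to 9.48 in the other pairs, so results are also given without it. The label LoVo was set against marker genes. Of 8 intestinal epithelial markers, *CDX2* reached 25.4 to 29.0 CPM and *KRT8* 41.6 to 68.4 CPM, but *EPCAM*, *KRT20* and *VIL1* had at most 1 count in any library, and *LGALS4* at most 4. A count near 0 in this table need not mean that a gene was silent, since *DDX47*, a small-subunit helicase gene that dividing cells use, had 0 counts in all 6 libraries and *WDR74*, a large-subunit factor, had 1 to 6, so these markers do not settle the label. The summed level of the 8 markers was 102 to 110 CPM in the scramble and 106 to 117 CPM in the siRNA libraries, that of 7 markers of other cell types, 5 of which had at most 3 counts in every library, was 0.469 to 1.29 and 1.15 to 2.36 CPM, and their part in the results was not tested.

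The question was whether the ribosome biogenesis genes differed in level after *SNHG15* depletion. A single gene, *LYAR*, fell at an adjusted p under 0.05 and none rose, although most genes of the list lay slightly below their scramble level. Among the 42 genes with enough counts to be tested, log2 fold changes ran from -0.52 for *LYAR* to 0.92 for *DDX18* around a median of -0.11, and 33 of them (78.6%) were below 0, against 49.9% of all 12507 genes tested, whose median was 0.00. When libraries were scaled by their totals alone, 23 of the 42 were below 0 and the median was -0.02, while that of all genes was 0.09. With at least 10 counts required in every library, 31 of the 42 were below 0 and the median was -0.08, against 0.00 for the 10815 genes kept. The list had a median scramble level of 123 CPM and was not set against genes of like level. The gene that could not be tested was *BOP1*, a member of the PeBoW complex of large-subunit maturation, with 1 count in scramble replicate 1, 1 in siRNA replicate 1 and 0 in the other libraries.

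By edgeR's quasi-likelihood test, 1 of 42 genes (2.38%) was called, against 5.36% of all genes (671, of which 279 were lower, 2.23%, and 392 higher, 3.13%). With upper-quartile factors the split over all genes was 230 lower and 515 higher, and with library totals alone it was 162 and 646. An unadjusted p under 0.05 was found for 10 of the 42 genes (23.8%), near the 22.5% of all genes. Of the 42, 8 (19%) were lower and 2 (4.76%) were higher at that p, where 10.5% and 12% of all genes were. The libraries of the conditions did not overlap for 13 genes (31%), near the 28.8% of all genes. Of these 13, 10 were lower in every siRNA library (23.8%, against 14.1% of all genes) and 3 were higher (7.14%, against 14.7%).

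The SE of a log2 fold change had a median of 0.13 over the 42 genes and 0.17 over all genes tested, and for 34 of 42 genes (81%) the 95% interval lay wholly inside a 1.5-fold change in either direction. With DESeq2, 4 of 43 genes passed the threshold, *FBL*, *EBNA1BP2* and *LYAR* as lower and *DDX18* as higher. Over the whole table DESeq2 called 774 of the 23675 genes with counts. That total includes genes with too few counts for the edgeR fit, which kept 12507. The DESeq2 share of the list and that of the whole table are therefore not on a like basis. Leaving out 1 library gave 0 calls among the 42 genes without scramble replicate 1, 2 or 3 or siRNA replicate 2. Over all genes these fits called 199 of 12658, 139 of 12658, 266 of 12888 and 356 of 12820. Without siRNA replicate 1, 3 of the 42 genes were called (*FBL*, *LYAR* and *UTP20*, all lower), against 812 of 12803 over all genes. Without siRNA replicate 3, 1 of the 42 was called (*DDX18*, higher), against 665 of 12607 over all genes.

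**Figure D1:**
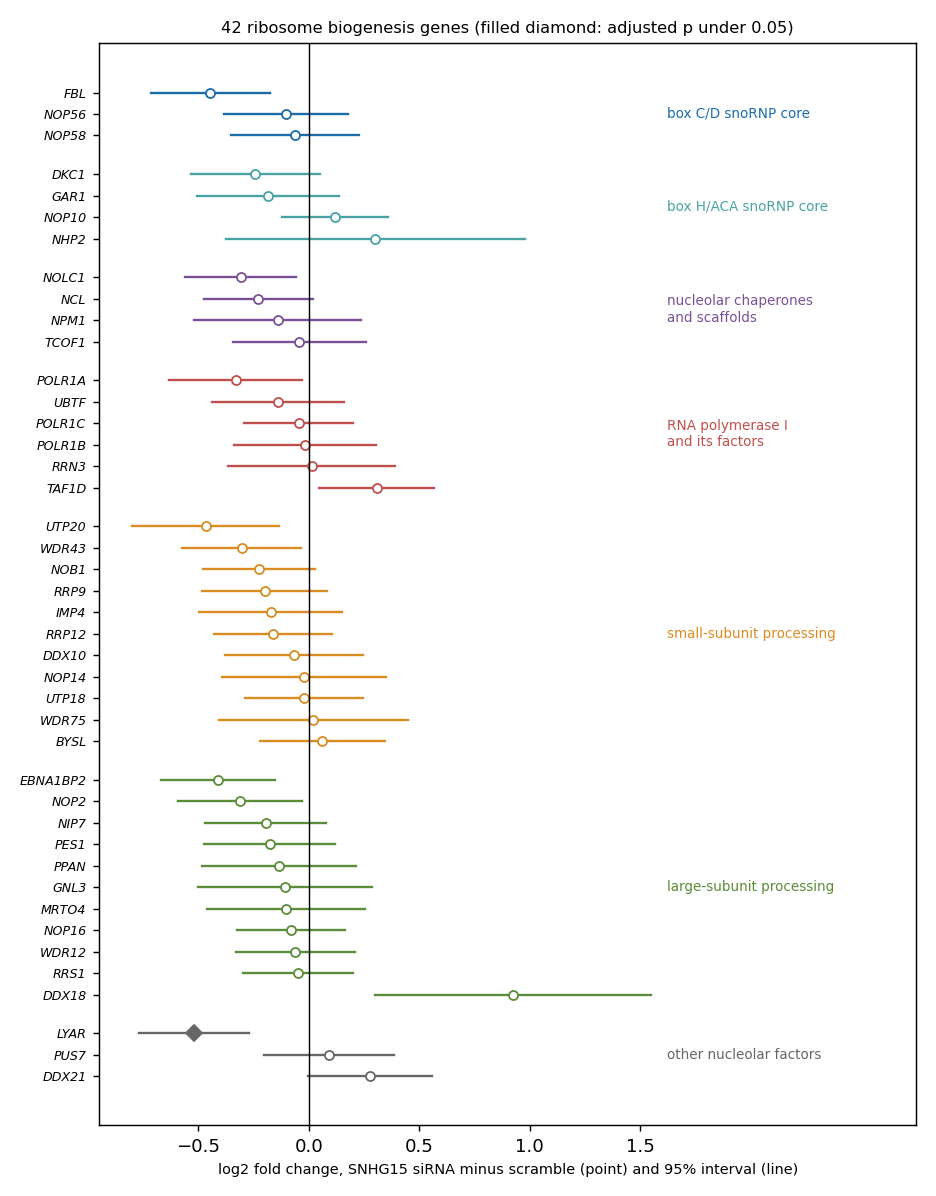
Log2 fold change of each of 42 ribosome biogenesis genes, siRNA minus scramble (horizontal axis; points, estimates; lines, 95% intervals), grouped by role and with a filled diamond for an adjusted p under 0.05 by edgeR. Of the 42 points 33 lie left of 0, *LYAR* alone is filled, and *DDX18* lies farthest to the right at 0.92. With libraries scaled by their totals alone (not drawn), 23 were below 0 and 33 below the median of all genes, 0.09.

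The 3 core proteins of box C/D snoRNPs all had estimates below 0, with a median of -0.10. *FBL* encodes fibrillarin, the enzyme that places the methyl groups, and *NOP56* and *NOP58* encode the scaffold that holds it to the guide RNA. *FBL* (chromosome 19, 40325098 to 40337019, minus strand, GRCh37) stood at 424, 448 and 528 CPM in scramble replicates 1 to 3 and at 360.0, 327 and 340.0 CPM in siRNA replicates 1 to 3. All siRNA libraries were below all scramble libraries, scramble replicate 3 being the highest. Its log2 fold change was -0.45 (SE 0.13, 95% interval -0.72 to -0.18), a mean that was 73.4% of the scramble mean, with an adjusted p of 0.0563 by edgeR and 0.0161 by DESeq2. Without siRNA replicate 1 the adjusted p of *FBL* was 0.0285 by edgeR.

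*NOP56* stood at 666, 536 and 631 CPM in the scramble and 631, 564 and 513 CPM in the siRNA libraries. The conditions overlapped, and the log2 fold change was -0.10 (SE 0.13, adjusted p = 0.686, edgeR). *NOP58* went from 134 ± 20.7 to 128 ± 8.04 CPM (n = 3 in each condition), a log2 fold change of -0.06. None of the 3 box C/D genes was called by edgeR. Of the 3, 1 had an unadjusted p under 0.05, as did 22.5% of all genes, and 1 was called by DESeq2, *FBL* in both cases. Rows of *NOP56* pseudogenes held 19.2% of the counts of gene and pseudogenes together, at 159 to 180.1 CPM in the scramble and 92.9 to 138 CPM in the siRNA libraries, so reads of *NOP56* may be divided between these rows.

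The box H/ACA core showed no common direction. *DKC1*, the pseudouridine synthase dyskerin, and *GAR1* had estimates below 0, and *NHP2* and *NOP10*, small proteins of the same particle, had estimates above 0, that of *NHP2* turning to -0.03 without scramble replicate 2. *DKC1* stood at 208, 247 and 198 CPM in the scramble and at 159, 199.9 and 193 CPM in the siRNA libraries. Only siRNA replicate 2 lay within the scramble range, and the log2 fold change was -0.24 (SE 0.14, adjusted p = 0.310, edgeR). *GAR1* stood at 207, 197 and 219 CPM in the scramble and at 141, 207 and 201 CPM in the siRNA libraries. Its low value came from siRNA replicate 1 alone, and the log2 fold change of -0.19 (SE 0.15, adjusted p = 0.495, edgeR) became -0.03 without that library.

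*NOP10* was higher in every siRNA library, at 136 ± 2.99 CPM against 125 ± 2.19 CPM (n = 3), but by 0.12 on the log2 scale (SE 0.11, adjusted p = 0.572, edgeR). *NHP2* had few counts, 18 to 80 per library, with a log2 fold change of 0.30 (SE 0.31) that was 0.83 without scramble replicate 1, and 28.0% of its exon bases overlap *RMND5B* on the opposite strand. None of the 4 H/ACA genes was called by edgeR or DESeq2, and 0 had an unadjusted p under 0.05, against 22.5% of all genes.

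All 4 nucleolar chaperones and scaffolds had estimates below 0, with a median of -0.18. *NOLC1* encodes a phosphoprotein that accompanies snoRNPs to the nucleolus, and *NCL* encodes nucleolin, which binds the rRNA precursor. *NOLC1* stood at 297, 304 and 269.7 CPM in the scramble and at 231, 244 and 229 CPM in the siRNA libraries. The conditions did not overlap. The log2 fold change was -0.31 (SE 0.12, 95% interval -0.56 to -0.06) and the adjusted p was 0.137 by edgeR.

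*NCL* drew the most reads of the list in every library, at 1113, 1110 and 1064 CPM in the scramble and 861, 996.5 and 950.2 CPM in the siRNA libraries. Again all siRNA libraries were lower, with siRNA replicate 1 the lowest, and the log2 fold change was -0.23 (SE 0.11, adjusted p = 0.255, edgeR). *NPM1*, which encodes nucleophosmin, went from 485 ± 110.2 to 439.7 ± 82.2 CPM (n = 3), and the sign of its log2 fold change of -0.14 turned without scramble replicate 2 (0.07) or siRNA replicate 3 (0.01). *TCOF1*, encoding treacle, a factor of rDNA transcription, had a log2 fold change of -0.04. Of these 4 genes, 0 were called by edgeR or DESeq2 and 1, *NOLC1*, had an unadjusted p under 0.05, as did 22.5% of all genes.

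Genes of RNA polymerase I and its factors lay on both sides of 0. The catalytic subunit gene *POLR1A* was lower and *TAF1D*, a subunit of the promoter selectivity factor SL1, was higher in every siRNA library. *TAF1D* stood at 159, 159.7 and 138 CPM in the scramble and at 179, 199.8 and 188 CPM in the siRNA libraries. Its log2 fold change was 0.31 (SE 0.12, 95% interval 0.05 to 0.57, adjusted p = 0.151, edgeR). *POLR1A* stood at 66.9, 70.3 and 76.5 CPM in the scramble and at 63.5, 48.2 and 57.6 CPM in the siRNA libraries. The conditions came closest between scramble replicate 1 and siRNA replicate 1, and the log2 fold change was -0.33 (SE 0.14, adjusted p = 0.178, edgeR).

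The other 4 genes of this class lay between -0.14 and 0.01, with *POLR1B*, the second largest subunit, at -0.02, *POLR1C*, a subunit shared with RNA polymerase III, at -0.05, *UBTF*, which binds the rDNA promoter, at -0.14, and *RRN3*, which recruits the polymerase, at 0.01. Of the 6 genes 0 were called by edgeR or DESeq2. An unadjusted p under 0.05, which 22.5% of all genes had, was found for 2, *POLR1A* as lower and *TAF1D* as higher.

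Among 11 genes of small-subunit processing, 9 had estimates below 0, with a median of -0.16. *UTP20* and *WDR43* belong to the small-subunit processome, the particle that folds and cuts the 18S precursor. *UTP20* (chromosome 12, 101673883 to 101780396, plus strand, GRCh37) stood at 41.7, 39.0 and 39.6 CPM in the scramble and at 32.0, 31.7 and 23.6 CPM in the siRNA libraries. The scramble libraries lay close together and siRNA replicate 3 was the lowest. Its log2 fold change was -0.47 (SE 0.15, 95% interval -0.80 to -0.14), with an adjusted p of 0.0933 by edgeR and 0.0448 without siRNA replicate 1.

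*WDR43* stood at 77.2, 81.8 and 79.8 CPM in the scramble and at 69.3, 65.6 and 58.6 CPM in the siRNA libraries. All siRNA libraries were lower, with a log2 fold change of -0.30 (SE 0.12, adjusted p = 0.168, edgeR). *NOB1*, the nuclease that makes the mature 18S end, was also lower in every siRNA library, at 176 ± 3.84 against 206 ± 16.5 CPM (n = 3, log2 fold change -0.23). The other genes lay between -0.20 for *RRP9*, a U3 snoRNP protein, and 0.06 for *BYSL*, a factor of late small-subunit maturation. *RRP12* and *IMP4* were at -0.16 and -0.17, and *UTP18*, *NOP14*, *DDX10* and *WDR75* between -0.07 and 0.02. In this class 0 genes were called by edgeR or DESeq2, and 2 (*UTP20* and *WDR43*) had an unadjusted p under 0.05.

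**Figure D2:**
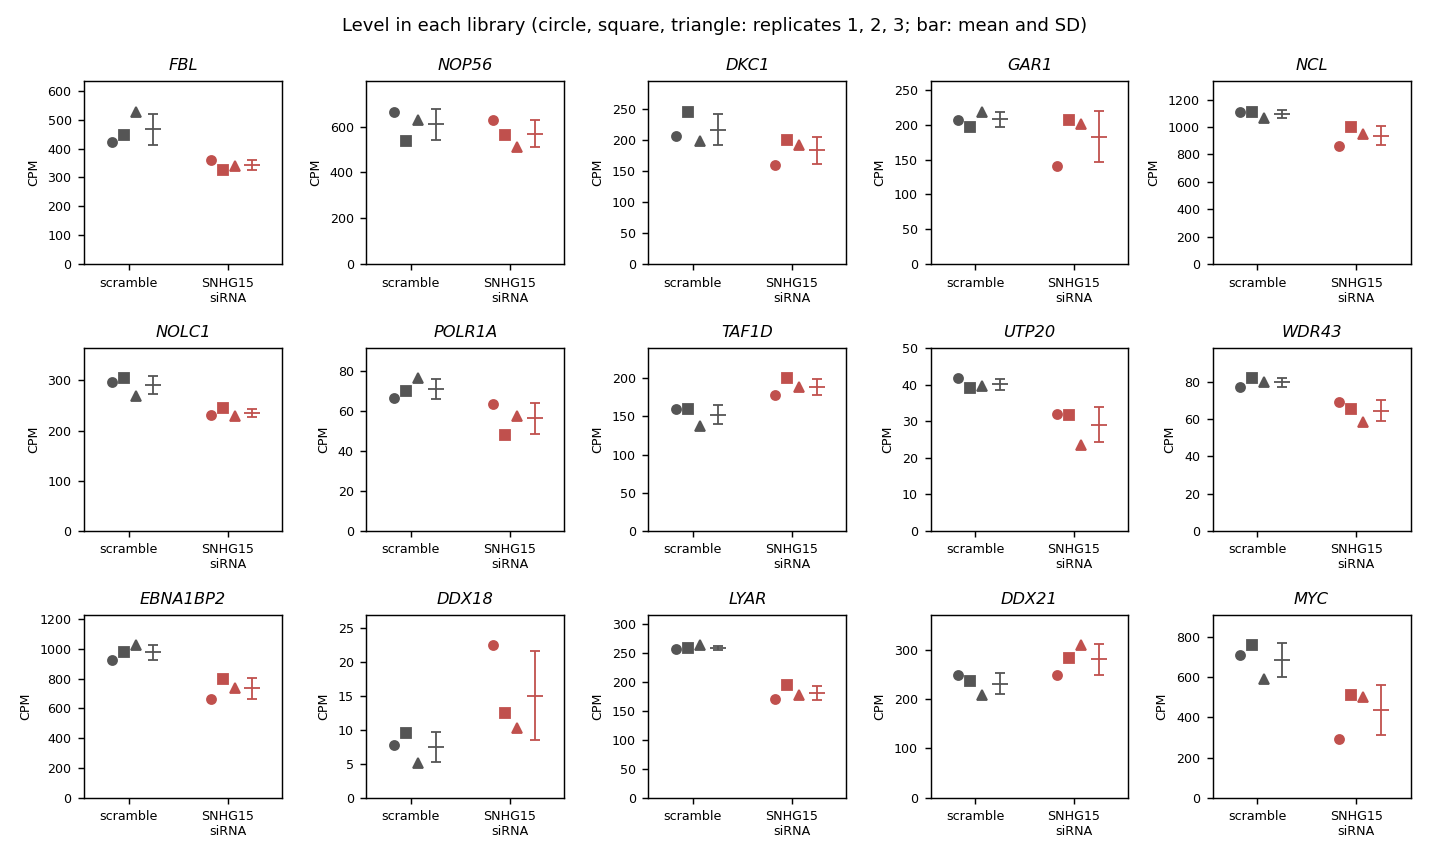
CPM (vertical axes, from 0) in each library for the 14 ribosome biogenesis genes given in full and for *MYC*, with scramble in grey and *SNHG15* siRNA in red, replicates 1, 2 and 3 as circle, square and triangle, and bars for mean and SD. The conditions separate for *LYAR*, *FBL*, *EBNA1BP2* and *UTP20* but overlap for *NOP56*, *DKC1* and *GAR1*, and siRNA replicate 1 stands apart for *DDX18* at 22.5 CPM.

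Of 11 large-subunit genes tested, 10 had estimates below 0 and *DDX18* alone lay above, and the median was -0.11. *EBNA1BP2* encodes a nucleolar protein of early large-subunit assembly. It was the most abundant gene of the list per length, at 722 CPM per kb of its canonical transcript in the scramble libraries. *EBNA1BP2* (chromosome 1, 43629846 to 43736607, minus strand, GRCh37) stood at 923.5, 982 and 1024 CPM in the scramble and at 664.5, 800.5 and 740.4 CPM in the siRNA libraries. No siRNA library reached a scramble library, and siRNA replicate 1 was the lowest. The log2 fold change was -0.41 (SE 0.12, 95% interval -0.67 to -0.15), leaving 75.3% of the scramble mean, with an adjusted p of 0.0626 by edgeR and 0.0204 by DESeq2. Of its exon bases 13.7% overlap *CFAP57* on the opposite strand.

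*DDX18*, an RNA helicase gene (chromosome 2, 118572267 to 118589953, plus strand, GRCh37), had the lowest level per length of the 42 tested genes, at 2.002 CPM per kb. It stood at 7.85, 9.55 and 5.14 CPM in the scramble and at 22.5, 12.5 and 10.2 CPM in the siRNA libraries, from 17 to 162 counts per library. All siRNA libraries were higher, with replicate 1 far above the others. The log2 fold change was 0.92 (SE 0.29, 95% interval 0.30 to 1.55), with an adjusted p of 0.0807 by edgeR and 0.0485 by DESeq2. Without siRNA replicate 1 it was 0.50 with an adjusted p of 0.1996, and without siRNA replicate 3 it was 1.15 with an adjusted p of 0.0322 (edgeR).

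*NOP2*, which encodes a cytosine methyltransferase of 28S rRNA, was lower in every siRNA library at 120.0 ± 12.6 against 149 ± 15.4 CPM (n = 3, log2 fold change -0.31, SE 0.13, adjusted p = 0.176, edgeR). Both tested genes of the PeBoW complex lay below 0, *PES1* at -0.18 and *WDR12* at -0.06. *NIP7*, *PPAN*, *GNL3* (nucleostemin) and *MRTO4* lay between -0.20 and -0.10, and *NOP16* and *RRS1* at -0.08 and -0.05. In this class 0 genes were called by edgeR, 3 had an unadjusted p under 0.05 (*EBNA1BP2* and *NOP2* as lower, *DDX18* as higher) and 2 were called by DESeq2.

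*LYAR*, a zinc-finger protein of the nucleolus, was the gene of the list that fell. *LYAR* (chromosome 4, 4269428 to 4291881, minus strand, GRCh37) stood at 257, 258.5 and 264 CPM in scramble replicates 1 to 3 and at 171, 195.5 and 177 CPM in siRNA replicates 1 to 3. The scramble libraries lay within a few CPM of each other and all siRNA libraries were below them. *LYAR* and the other genes given in full were picked by their p in the same libraries. For them a lack of overlap therefore adds nothing to the p. The log2 fold change was -0.52 (SE 0.12, 95% interval -0.77 to -0.27), leaving 69.8% of the scramble mean, with an adjusted p of 0.0221 by edgeR and 0.00141 by DESeq2. The adjusted p of *LYAR* by edgeR was 0.0903, 0.0947 and 0.0770 without scramble replicate 1, 2 and 3, 0.0544 and 0.0512 without siRNA replicate 2 and 3, and 0.0182 without siRNA replicate 1.

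*DDX21*, a nucleolar RNA helicase, stood at 249.8, 236 and 208 CPM in the scramble and at 248, 284 and 309 CPM in the siRNA libraries. The conditions overlapped because siRNA replicate 1 lay within the scramble range, and the log2 fold change was 0.28 (SE 0.13, adjusted p = 0.228, edgeR). *PUS7*, a stand-alone pseudouridine synthase, had a log2 fold change of 0.09 (SE 0.14).

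*MYC*, outside the list, stood at 708, 757 and 591.5 CPM in the scramble and at 291, 512 and 503 CPM in the siRNA libraries. Every siRNA library was lower, with replicate 1 the lowest. Its log2 fold change was -0.66 (SE 0.19), with an adjusted p of 0.0613 by edgeR and 0.0130 by DESeq2. Without siRNA replicate 1 *MYC* was at -0.44 with an adjusted p of 0.0462 (edgeR). Without siRNA replicate 3 it was at -0.77 with one of 0.0482. The adjusted p of *MYC* was 0.0681 without siRNA replicate 2, and 0.170, 0.228 and 0.0929 without scramble replicates 1, 2 and 3 (edgeR). Among the ribosome biogenesis genes with a promoter window, the log2 fold changes had a median of -0.18 in the 18 with an E-box and of -0.09 in the 18 without one, and 14 of 18 were below 0 in both sets.

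Across libraries, each gene was set against its mean over the scramble libraries. The median of the 42 deviations in log2 CPM was 0.03, -0.01 and -0.02 in scramble replicates 1 to 3 and -0.08, -0.10 and -0.19 in siRNA replicates 1 to 3. In siRNA replicates 1, 2 and 3, 20, 17 and 24 of the 42 genes lay below their lowest scramble library. The lowest value of the 6 libraries fell in siRNA replicate 3 for 16 genes and in siRNA replicate 1 for 12. The same counts were not made over all genes tested, so they have no share to stand beside and only describe the list. By role, the siRNA libraries were all below the scramble libraries in the small-subunit and large-subunit classes, while in the other 5 classes the conditions overlapped. Without siRNA replicate 1 the 42 log2 fold changes had a median of -0.14, with 30 below 0.

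**Figure D3:**
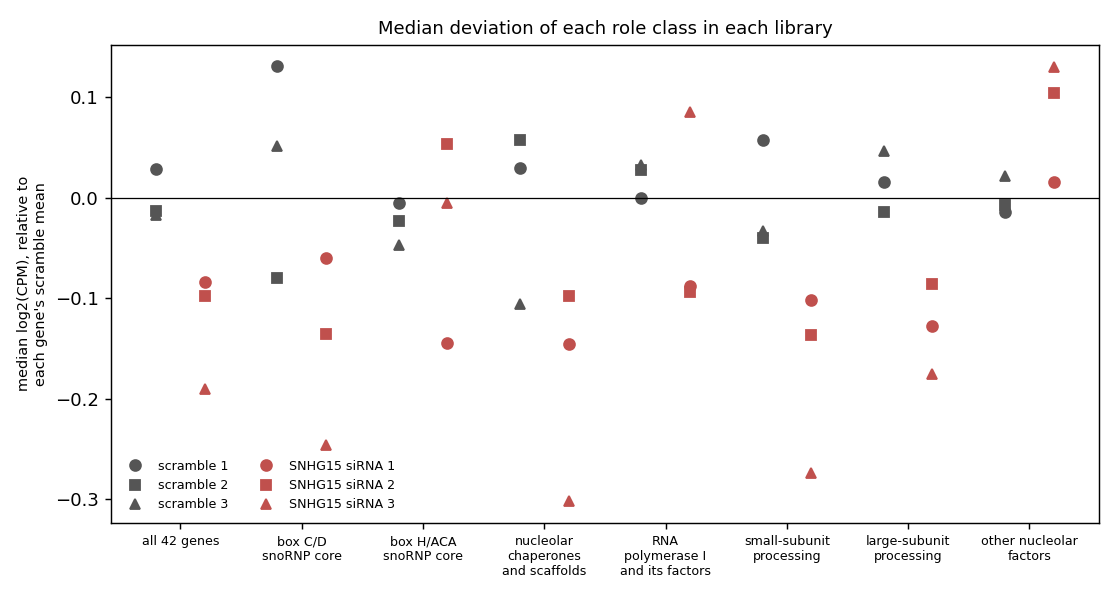
Median over the genes of each role class of log2 CPM relative to the gene's scramble mean (vertical axis), for each library (grey, scramble; red, *SNHG15* siRNA; circle, square and triangle, replicates 1, 2 and 3). Over all 42 genes the siRNA libraries lie at -0.08, -0.10 and -0.19, below the scramble libraries at 0.03, -0.01 and -0.02, and replicate 3 is the lowest in the C/D, chaperone, small-subunit and large-subunit classes.

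Added together, the 43 genes made up 8024, 8112 and 8090 CPM in the scramble and 7134, 7341 and 6934 CPM in the siRNA libraries. The sum follows the abundant genes. Without *NCL* and *NPM1* it was 6509, 6392 and 6583 CPM against 5785, 5858 and 5639 CPM, and the conditions did not overlap in either sum. Both sums still hold *EBNA1BP2*, whose mean went from 976.5 to 735.1 CPM, and *FBL*, from 466.6 to 342.2 CPM. They therefore do not show a fall shared by the list, in which 9 of the 42 tested genes had estimates above 0. Sums of other gene sets were not compared for overlap in this way, apart from the further lists. Among the 42 tested genes (*BOP1*, at 0 or 1 count, had no length to divide by), the most abundant per length after *EBNA1BP2* were *FBL* at 415, *NPM1* at 367, *NOP56* at 319.5, *NOP16* at 310.5 and *NCL* at 279 CPM per kb in the scramble libraries, and the least abundant after *DDX18* were *WDR75* at 3.65 and *UTP20* at 4.44 CPM per kb. These were means of 3 libraries, and the order of neighbours was not tested.

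Several of these genes carry snoRNA genes in their introns, so that the same transcript yields a protein and guide RNAs. Such genes were 9 of the 43 (*NOP56*, *NOP58*, *DKC1*, *NCL*, *POLR1C*, *TAF1D*, *WDR43*, *GNL3* and *PPAN*), with 31 rows of snoRNAs or related scaRNAs in the table, 8 of them in *TAF1D*. Only *SNORA51* in *NOP56* (1 count) and *SNORD11* in *NOP58* (7 counts over all libraries) had any counts, in libraries made from selected mRNA, so that the snoRNAs themselves could not be compared. Log2 fold changes of the 9 host genes had a median of -0.11 (8 of 9 below 0), and those of the other 33 tested genes one of -0.10 (25 below 0).

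The rest of the pathway was read from 7 further lists of 161 genes, of which 158 were matched and 154 tested. Their log2 fold changes had a median of -0.03, with 86 of 154 (55.8%) below 0, against 49.9% of all genes. By edgeR 8 were called (5.19%), 3 as lower and 5 as higher, a share near the 5.36% of all genes, and 36 (23.4%) had an unadjusted p under 0.05, near the 22.5% of all genes. Their summed level was 14720 to 15620 CPM in the scramble and 13980 to 15180 CPM in the siRNA libraries, which overlap.

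The further genes that fell act in large-subunit assembly and rRNA modification. *GNL2*, a nucleolar GTPase, fell from 259 to 172 CPM in the mean (log2 fold change -0.59, SE 0.12, adjusted p = 0.0175, edgeR). *SBDS*, which frees the large subunit of an initiation factor, had a log2 fold change of -0.59 (adjusted p = 0.0355, edgeR), and *METTL5*, an adenosine methyltransferase of 18S rRNA, one of -0.54 (adjusted p = 0.0395, edgeR). Both calls were lost with library totals alone (adjusted p = 0.0723 for *SBDS* and 0.0811 for *METTL5*) and with the replicate number as a block (0.0710 and 0.0580), and that of *METTL5* with a filter of 10 counts in every library (0.0511). The genes that rose were *BUD23*, a guanosine methyltransferase of 18S rRNA, at 0.79 (adjusted p = 0.00846, edgeR), *CRCP*, an RNA polymerase III subunit, at 0.84 (0.0191), *DDX55*, a large-subunit helicase, at 0.68 (0.0299), *LSG1*, a GTPase of late large-subunit maturation, at 0.66 (0.0396), and *DIS3*, a catalytic subunit of the RNA exosome, at 0.71 (0.0396). The call of *LSG1* was lost with the block (adjusted p = 0.0592, edgeR), and that of *DIS3* in each of the 6 fits without 1 library (0.0505 to 0.187). Calls of *GNL2*, *CRCP*, *SBDS*, *METTL5* and *LSG1* were each lost without scramble replicate 1, 2 or 3 and without siRNA replicate 2. That of *DDX55* was lost without scramble replicate 1, 2 or 3, and that of *BUD23* without scramble replicate 2 (adjusted p = 0.0639, edgeR). The conditions did not overlap for any of these 8 genes. They had been picked by their p in the same libraries, so this adds nothing to the calls. Without scramble replicates 1, 2 and 3, 1, 0 and 1 of the further genes were called, and without siRNA replicates 1, 2 and 3, 7, 2 and 10 were. In the same order, these fits called 199, 139, 266, 812, 356 and 665 over all genes.

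By list, 2 of 41 other large-subunit genes fell and 2 rose, 1 of 17 modification enzymes fell and 1 rose, 1 of 24 genes of the exosome and RNase MRP/P rose, and 1 of 11 RNA polymerase III subunits rose. Over all genes 5.36% were called, and none of these lists was tested against that share. In 3 lists edgeR called 0 genes, and their counts at an unadjusted p under 0.05 stand beside the 22.5% of all genes. Among 15 other RNA polymerase I genes, 4 had an unadjusted p under 0.05, and *POLR1F*, a polymerase subunit, had the smallest (log2 fold change 0.51, adjusted p = 0.0558), which DESeq2 called. Among 10 snoRNP assembly factors, 3 did, led by *SNU13*, a kink-turn binding protein of box C/D RNAs (-0.30, adjusted p = 0.146), and among 36 other small-subunit genes, 6 did, led by *WDR36* (0.45, adjusted p = 0.110). DESeq2 called 0 genes in the assembly list and in the small-subunit list.

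**Figure D4:**
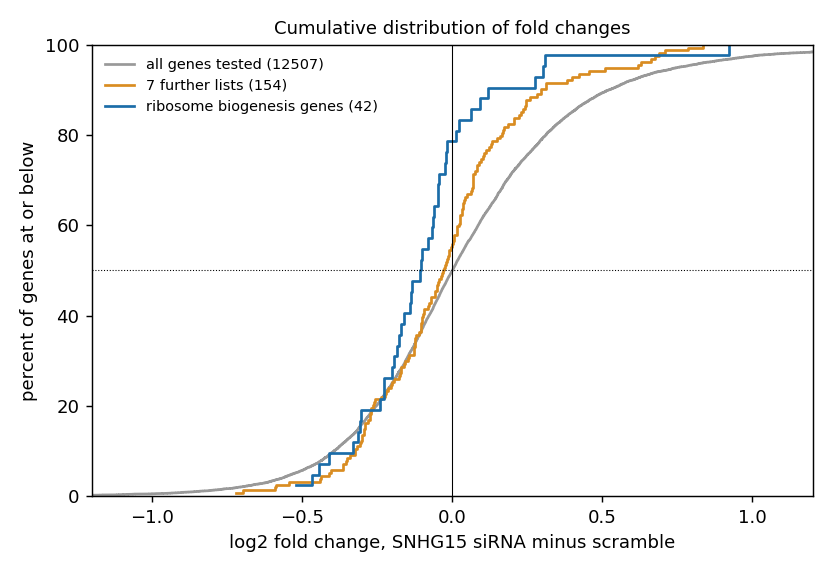
Cumulative share of genes (vertical axis, percent) at or below each log2 fold change (horizontal axis, siRNA minus scramble), for 42 ribosome biogenesis genes, 154 genes of the further lists and all 12507 genes tested, with the far tails of all genes outside the axis. At 0 the curves stand at 78.6% for the ribosome biogenesis genes and 49.9% for all genes, and they cross the 50% line at -0.11, -0.03 and 0.00. With libraries scaled by their totals alone (not drawn), 23 of the 42 were below 0. The median of all genes was then 0.09, and 33 of the 42 lay below it.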

How the data were processed

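RNA-seq was analysed in 6 LoVo libraries, 3 per condition, grouped by the sample labels, with 0 columns left unassigned. The deposited values are raw counts per gene that the authors made from 75 bp paired-end reads of stranded mRNA libraries. The submitters' processing notes name STAR, featureCounts and hg19, whereas the study's methods name bowtie2. The use of strand and of multiply placed reads is not given in the sources used here. RNA extraction is given as TRIzol in the labels and as a Maxwell kit in the methods.

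Counts were filtered with filterByExpr (minimum count 10, minimum total 15), normalized by TMM and compared between conditions by the quasi-likelihood test of edgeR 4.0.16 in R 4.3.3, with no block and with Benjamini-Hochberg adjustment over the 12507 genes kept of 23675 with counts. An adjusted p under 0.05 was a call. SEs were the log2 fold change divided by the root of its F, intervals from the t distribution, and CPM from TMM-scaled totals. Steps were tested on simulated data. DESeq2 1.42.0, other scalings and filters, a replicate block and leaving out each library were alternatives.

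The genes, role classes and further lists were chosen with earlier results of these data known. Values in every library are given for called genes and for the 2 smallest p in each of 7 role classes, and for each further list the called genes, else the smallest p. Names and positions came from GENCODE release 44 on GRCh37 (8012 identifiers had no entry), and promoters from RefSeq. *ZNHIT3*, *DDX52* and *AATF* of the further lists and the endothelial marker *PECAM1* were not matched.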

Additional observations from a re-analysis of the deposited data

How the results depend on the processing

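*SNHG15* kept its direction and its call in all 13 alternatives, and 26 of the 42 ribosome biogenesis genes kept their direction in all of them. Without a filter on low counts, 1312 of 23675 genes were called over the whole table (627 lower, 685 higher). Of these, 4 were ribosome biogenesis genes and 16 belonged to the further lists. DESeq2 called 4 of the ribosome biogenesis genes and 774 of 23675 genes over the whole table. In both cases the 23675 include genes with too few counts for the reported fit, which kept 12507. With library totals alone the median of the 42 genes was -0.016, and it lay 0.11 below that of all genes there as in the reported fit (-0.11). Leaving out 1 library gave 139 to 812 calls over all genes, 0 to 3 in the ribosome biogenesis genes, 0 to 10 in the further lists, and a median between -0.14 and -0.07 in the 42 genes. Over these fits *NHP2* ranged from -0.031 (without scramble replicate 2) to 0.83 (without scramble replicate 1), and *NPM1* from -0.26 (without scramble replicate 1) to 0.066 (without scramble replicate 2), with 0.0095 without siRNA replicate 3. The cause of these changes was not tested. Deviations of same-numbered libraries correlated at r = -0.07, 0.15 and -0.04 across genes, so the replicate numbers were not shown to pair the libraries. With the replicate block 543 genes were called over the whole table, 1 of the ribosome biogenesis genes (*LYAR*, adjusted p = 0.0466, edgeR) and 5 of the further lists. Scramble replicate 3 was the shallowest library, and *DDX18*, *NHP2* and *WDR75* rested on few counts.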

Other observations

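Reads assigned to annotated pseudogenes differed widely between the ribosome biogenesis genes. They made up 38.8% of the counts of gene and pseudogenes together for *NHP2*, 18.7% for *RRN3*, 4.70% for *DDX10*, 3.09% for *NPM1* (22 of 49 pseudogenes had counts) and 1.53% for *DDX18*, and *LYAR* had a pseudogene with 0 counts. Overlapping annotated exons covered 20.7% of the exon bases of *NOP14* (*NOP14-AS1*), 20.4% of *NOB1* (*NQO1-DT*) and 18.4% of *NIP7* (*COG8*), all on the opposite strand, and 47.6% of *PPAN* by the read-through gene *PPAN-P2RY11* on the same strand.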
